A study of Mus musculus with 6 samples.

Results

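The C-type lectin receptors of mouse chromosome 6 described here are 10 genes, Clec7a, Clec4n, Clec4e, Clec4d, Clec4a1, Clec4a2, Clec4a3, Clec12a, Clec1b and Clec5a, taken by name from a table of 54532 genes. They were measured by RNA sequencing in bone marrow neutrophils of C57BL/6J mice, 3 libraries from wild-type (WT) mice and 3 from mice lacking progranulin (PGRN KO), all after 6 h of culture with live Candida albicans. Progranulin is a secreted glycoprotein encoded by Grn, and the study asked how its loss altered the neutrophil response to this fungus. The sample notes give a yeast-to-cell ratio of 1:1 and the study's methods give 1:10, and cultures without fungus were not analysed here, so every level below is a level after challenge. The neutrophils were selected with magnetic beads against Ly-6G, the PGRN KO mice came from the Jackson Laboratory and the WT mice from a university colony, and supplier and genotype cannot be told apart. The methods state that mice were matched for age and sex, without giving the age of the neutrophil donors or the number pooled per culture, and the p-values therefore measure the spread between libraries, which may be technical.

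C-type lectin receptors are membrane proteins that bind sugars, glycolipids or other ligands through a shared fold, and those of myeloid cells include the main receptors for fungal cell walls. Clec7a encodes Dectin-1, the β-glucan receptor, and Clec4n encodes Dectin-2, which binds fungal α-mannans. Clec4e encodes Mincle and Clec4d encodes its partner MCL, and both bind microbial glycolipids. Dectin-2 and Mincle signal through the adaptor FcRγ, Clec5a signals through DAP12, and these routes and that of Dectin-1 meet at the kinase SYK and the adaptor CARD9. Clec4a2 (DCIR1) and Clec12a (MICL) carry inhibitory motifs that recruit phosphatases, Clec4a1 and Clec4a3 are relatives of Clec4a2, and Clec1b encodes CLEC-2, best known as the podoplanin receptor of platelets.

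All 10 genes had the same positions in the deposited table and in the GENCODE M21 annotation of GRCm38. A block of 6 members, Clec4a1, Clec4a3, Clec4a2, Clec4n, Clec4d and Clec4e, ran from chr6:122921848 to chr6:123289870, a span of 368 kb. Clec12a, Clec1b and Clec7a lay together at chr6:129342691-129472779, and Clec5a stood apart at chr6:40574894-40585821. The annotation classes Clec7a as a polymorphic pseudogene, a label for genes that are intact in some strains only, and its reads were counted like those of the other members.

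The promoters of members with different responses to genotype are shown here because their levels are compared below. RefSeq start sites on GRCm38.p6 gave a window for 9 of the 10 members, from 250 bases before to 50 bases after the start, and Clec4n had no entry. The capitals mark the letters GAGGAA or their reverse complement TTCCTC, a core bound by PU.1, a transcription factor of myeloid cells. Clec4d (chr6:123261857-123262156, plus strand), Clec4e (chr6:123289822-123290121, minus strand) and Clec7a (chr6:129472730-129473029, minus strand) were lower in PGRN KO cells, whereas Clec5a (chr6:40585756-40586055, minus strand) and Clec12a (chr6:129349994-129350293, plus strand) were higher. The RefSeq starts of Clec12a and Clec4a2 lie 7553 and 16262 bases inside the genes as drawn in the deposited table.
Clec4d: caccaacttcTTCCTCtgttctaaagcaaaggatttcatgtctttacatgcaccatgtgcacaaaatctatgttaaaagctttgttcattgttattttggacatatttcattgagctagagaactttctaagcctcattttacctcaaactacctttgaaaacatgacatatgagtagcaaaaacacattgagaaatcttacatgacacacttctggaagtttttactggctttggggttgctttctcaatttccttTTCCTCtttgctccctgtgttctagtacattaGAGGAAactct
Clec4e: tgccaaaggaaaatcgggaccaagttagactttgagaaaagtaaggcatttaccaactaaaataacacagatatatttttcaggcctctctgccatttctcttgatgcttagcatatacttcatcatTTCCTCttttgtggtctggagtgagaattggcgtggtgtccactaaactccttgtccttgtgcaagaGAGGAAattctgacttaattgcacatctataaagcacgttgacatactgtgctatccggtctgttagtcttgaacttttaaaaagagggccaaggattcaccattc
Clec7a: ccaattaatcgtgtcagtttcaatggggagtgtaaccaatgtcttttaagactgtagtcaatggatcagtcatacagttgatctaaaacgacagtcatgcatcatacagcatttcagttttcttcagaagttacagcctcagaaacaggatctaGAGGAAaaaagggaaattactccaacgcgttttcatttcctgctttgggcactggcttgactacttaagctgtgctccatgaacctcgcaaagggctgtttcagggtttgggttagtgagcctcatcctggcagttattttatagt
Clec5a: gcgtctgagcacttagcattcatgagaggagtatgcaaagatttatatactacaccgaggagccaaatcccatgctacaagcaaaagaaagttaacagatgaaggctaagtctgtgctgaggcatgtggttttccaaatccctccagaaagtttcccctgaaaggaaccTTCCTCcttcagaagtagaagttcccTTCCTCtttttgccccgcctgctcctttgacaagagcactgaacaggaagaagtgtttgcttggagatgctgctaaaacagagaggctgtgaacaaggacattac
Clec12a: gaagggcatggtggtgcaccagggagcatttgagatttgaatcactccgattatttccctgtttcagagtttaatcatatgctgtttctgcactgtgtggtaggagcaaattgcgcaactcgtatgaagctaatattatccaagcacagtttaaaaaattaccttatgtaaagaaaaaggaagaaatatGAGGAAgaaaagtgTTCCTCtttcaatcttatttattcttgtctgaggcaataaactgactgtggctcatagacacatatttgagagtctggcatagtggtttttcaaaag

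The PU.1 letters, searched on both strands, were present in 7 of the 9 members with a window. Clec7a and Clec4a3 had 2 windows each, and by window the letters were in 8 of 11. They were in 28.3% of the 32851 RefSeq promoter windows of the same length. Clec4a2 and Clec1b were the 2 without them, and the members that were lower and those that were higher in PGRN KO cells both held them. The C/EBP pattern TTNNGNAA occurred in 5 of the 9 members, by window in 5 of 11, against 40.7% of all windows. The AP-1 pattern TGANTCA occurred in Clec12a and Clec4a2, against 7.81% of all windows, and an NF-kB pattern in Clec1b and Clec4a1, against 50.8%. An interferon-stimulated response element pattern was found in Clec4d alone, against 3.44% of all windows, on the minus strand over bases 0 to 9 counted from the start site, where it overlapped PU.1 letters at bases 7 to 12. These matches describe the letters in the windows and were not tested for binding.

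The libraries held 17290604 to 17799798 fragments on genes in WT and 17087344 to 18821091 in PGRN KO cultures. Grn itself was at 168.4, 161.3 and 166.1 FPKM (fragments per kilobase of gene, scaled to library size) in WT. It was at 0.2419, 0.2061 and 0.7468 FPKM in PGRN KO libraries, which fits the genotype labels. A comparison of FPKM between genes depends on the gene length used. Neutrophil marker genes summed to 67490 to 72100 FPKM in WT and 69280 to 79050 FPKM in PGRN KO libraries, and of the 11 genes Mmp8 and Csf3r were called lower and Mmp9 higher. All 5 immature granulocyte markers (Elane, Mpo, Prtn3, Ctsg and Ms4a3) were higher in PGRN KO cells, their sum running from 128.7 to 143.8 FPKM in WT and from 608.7 to 670.4 FPKM in PGRN KO. In bulk RNA, fewer cells of a type and less RNA per cell cannot be told apart. The differences given below are log2(FPKM + 1), PGRN KO minus WT, from limma across 14807 genes, called at a Benjamini-Hochberg adjusted p under 0.05 over all of them.

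Of the 10 receptors, Clec4d had the highest FPKM in every library and Clec1b the lowest. This order depends on the gene lengths. Not divided by length, Clec4e held more fragments than Clec4d (101660 against 92323 over the WT and 92515 against 76566 over the PGRN KO libraries). Clec4d averaged 1136 ± 59.9 FPKM in WT (SD, n = 3), Clec4e 403.0 ± 21.0 FPKM and Clec4n 249.3 ± 16.1 FPKM, and the ranges of these 3 neighbours in the order did not overlap. The other measurable members lay far below them. Clec5a averaged 60.95 ± 1.42 FPKM in WT, above Clec7a at 51.54 ± 2.96 FPKM and Clec4a1 at 48.6 ± 3.28 FPKM, and the last pair could not be told apart by their ranges. Clec4a2 at 30.67 ± 1.22 FPKM stood above Clec12a at 21.16 ± 1.26 FPKM and Clec4a3 at 20.23 ± 1.84 FPKM, whose ranges overlapped. In PGRN KO cells the top 4 places were the same, and the next were taken by Clec4a2 and Clec7a, with overlapping ranges, then by Clec12a and Clec4a1, with overlapping ranges, then by Clec4a3. In FPKM, Clec4a2 thus stood below Clec4a1 in every WT library and above it in every PGRN KO library. In fragments not divided by gene length, Clec4a2 was already above Clec4a1 in the WT libraries (1518, 1441 and 1601 against 1271, 1186 and 1391).

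**Figure D1:**
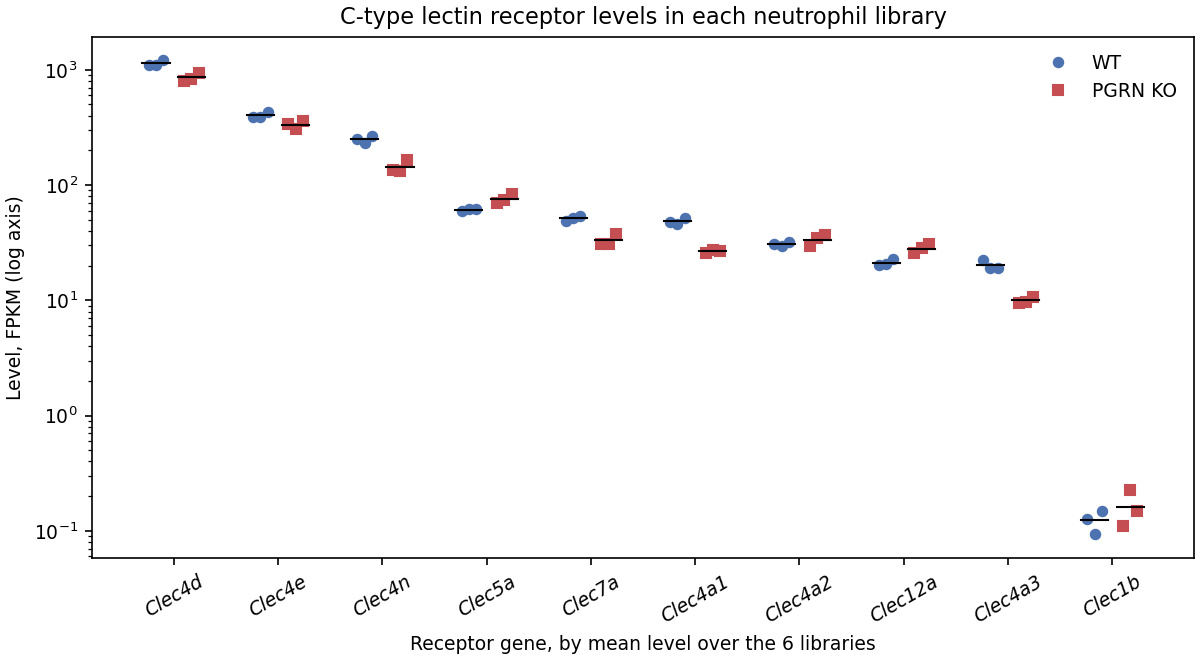
Level of each receptor in FPKM (log axis) in the 3 WT and 3 PGRN KO libraries, 1 point per library with bars at the means. Clec4d sits highest in both genotypes, Clec1b lies under 0.25 FPKM, and the genotypes overlap for Clec4a2 and Clec1b and not for the other 8 members.

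By genotype, 6 of the 10 receptors were called lower in PGRN KO cells (Clec4a3, Clec4a1, Clec4n, Clec7a, Clec4d and Clec4e), 2 were called higher (Clec12a and Clec5a), and Clec4a2 and Clec1b were not called. Across all genes tested, 17.9% were called, 9.95% lower and 7.94% higher. The values of 8 members did not overlap between genotypes, against 37.7% of all genes tested, 6 with PGRN KO below WT (19.6% of all genes) and 2 above (18.1%). The median difference of the 10 members was -0.34, and that of all genes tested was 0.0026. An exact permutation test of 3 against 3 libraries cannot go below p = 0.1 (two-sided), and that value was reached by each of the 8 members that did not overlap.

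Both receptors for fungal polysaccharides, Dectin-2 (Clec4n) and Dectin-1 (Clec7a), fell in PGRN KO cells, to 0.579 and 0.644 times their WT means. Clec4n was at 249.8, 233.0 and 265.2 FPKM in WT and at 134.0, 133.1 and 166.3 FPKM in PGRN KO libraries. The PGRN KO mean was 144.5 ± 18.9 FPKM (SD, n = 3), a log2 difference of -0.79 (SE 0.0967, limma adjusted p = 0.00332, 95% interval -1.02 to -0.56). The highest PGRN KO value remained well under the lowest WT value. Clec7a was at 48.5, 51.71 and 54.41 FPKM in WT and at 30.75, 31.04 and 37.8 FPKM in PGRN KO libraries, a log2 difference of -0.62 (SE 0.0887, limma adjusted p = 0.00552). PGRN KO library 6 was the highest of its genotype for both genes. Both kept their call in all 16 alternative settings, including the omission of each library. The study itself reported higher Dectin-2 mRNA and surface protein in PGRN KO neutrophils, and similar Dectin-1. Those measurements used heat-killed yeast, and the Dectin-2 difference was significant at a time well before 6 h. The study also found less surface Dectin-2 on PGRN KO neutrophils given recombinant progranulin. The RNA levels here, after 6 h with live yeast, run the other way for Dectin-2 and are lower rather than similar for Dectin-1. The reasons were not tested.

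The glycolipid receptors, the most abundant of the group, were lower by smaller factors. Clec4d was at 1094, 1110 and 1205 FPKM in WT and at 807.0, 830.9 and 935.5 FPKM in PGRN KO libraries, a log2 difference of -0.41 (SE 0.0697, limma adjusted p = 0.0106). Its 6 values did not overlap between genotypes, and its PGRN KO mean was 0.755 times the WT mean. Clec4e was at 393.2, 388.6 and 427.1 FPKM in WT and at 337.4, 307.8 and 357.2 FPKM in PGRN KO libraries, a log2 difference of -0.27 (SE 0.0672, limma adjusted p = 0.0356). The groups again lay apart, by a narrow margin. The Clec4e call did not hold without WT library 1, 2 or 3 or PGRN KO library 4 or 5 (adjusted p = 0.0782 to 0.106), nor with no filter on low values (adjusted p = 0.0739), nor without the trend of variance on level (adjusted p = 0.0587), nor when libraries were scaled to plain totals of fragments, where the difference was -0.15 (adjusted p = 0.143). The Clec4d call did not hold under quantile normalization (-0.22, adjusted p = 0.115) or without PGRN KO library 5 (adjusted p = 0.053).

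Within the DCIR family, Clec4a3 and Clec4a1 had the lowest PGRN KO to WT ratios of the 10 receptors, while Clec4a2 itself was not called. Clec4a3 was at 22.36, 19.25 and 19.1 FPKM in WT and at 9.457, 9.751 and 10.7 FPKM in PGRN KO libraries, 0.493 times the WT mean (log2 difference -0.95, SE 0.0775, limma adjusted p = 0.000783). Clec4a1 was at 48.03, 45.64 and 52.13 FPKM in WT and at 25.86, 27.21 and 26.71 FPKM in PGRN KO libraries, 0.547 times the WT mean (log2 difference -0.84, SE 0.0577, limma adjusted p = 0.000405). The PGRN KO libraries lay close together for both genes, and both calls held in all 16 alternative settings. Only 0.864% of all genes tested had a log2 difference at or below that of Clec4a1, and 0.554% one at or below that of Clec4a3. Clec4a2, the inhibitory receptor, was at 30.54, 29.53 and 31.95 FPKM in WT and at 29.39, 34.87 and 36.7 FPKM in PGRN KO libraries. One PGRN KO library lay below all WT libraries and the other two above them, and the log2 difference was 0.12 (limma adjusted p = 0.37, 95% interval -0.08 to 0.33). Of the 100-base stretches in its transcripts, 2.14% were also found in Clec4a4, and 8 members, Clec4a1 and Clec4a3 included, shared none with another gene.

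**Figure D2:**
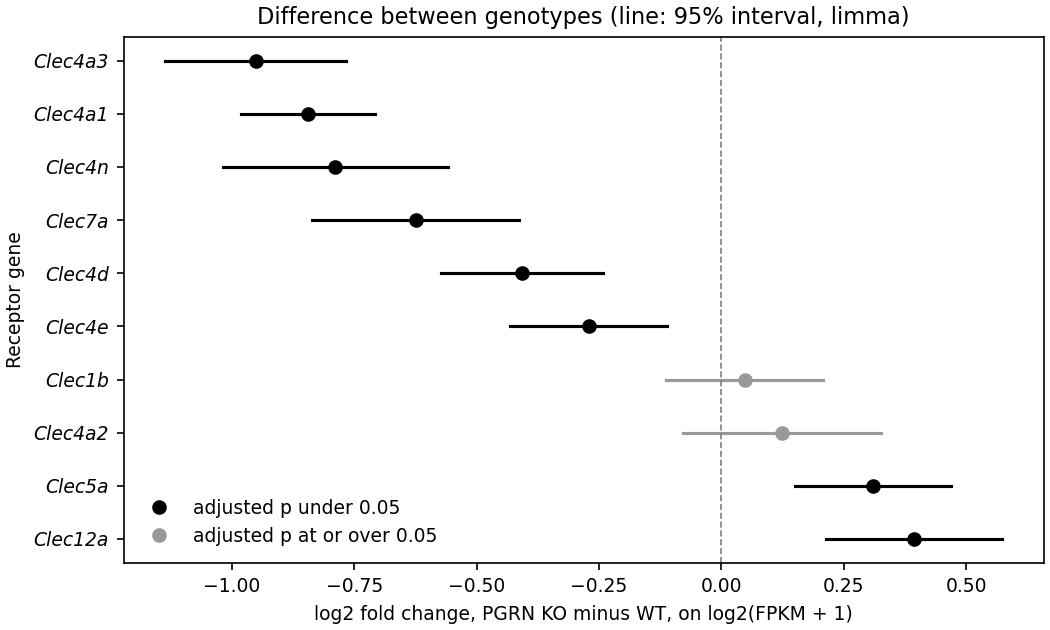
Difference between genotypes for each receptor, as log2(FPKM + 1) in PGRN KO minus WT, with 95% intervals from limma. Of the 10 receptors, 6 lie below 0 with a call, Clec5a and Clec12a lie above 0 with a call, and the intervals of Clec4a2 and Clec1b include 0.

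Clec12a and Clec5a were the members called higher in PGRN KO cells, and they differ in how they signal. Clec12a, an inhibitory receptor of myeloid cells, was at 20.34, 20.53 and 22.61 FPKM in WT and at 25.63, 28.23 and 30.58 FPKM in PGRN KO libraries, 1.33 times the WT mean (log2 difference 0.39, SE 0.0756, limma adjusted p = 0.0153). Clec5a, an activating receptor, was at 59.33, 61.49 and 62.02 FPKM in WT and at 70.18, 74.38 and 83.3 FPKM in PGRN KO libraries, 1.25 times the WT mean (log2 difference 0.31, SE 0.0666, limma adjusted p = 0.0228). The groups did not overlap for either gene. Without WT library 1, WT library 2 or PGRN KO library 5 neither call held, so that the number of members called higher was 0 in place of 2, and without WT library 3 it was 1, Clec5a being lost (adjusted p = 0.0594 to 0.0805 where a call was lost). The summed immature granulocyte markers rose with these genes in the same libraries, and their part in the result was not tested.

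Clec1b was barely detected. It was at 0.1269, 0.09399 and 0.1487 FPKM in WT and at 0.1098, 0.2266 and 0.1495 FPKM in PGRN KO libraries, which rests on 32 fragments over the 3 WT and 46 over the 3 PGRN KO libraries. The groups overlapped, and no difference was detectable at this depth (limma adjusted p = 0.675). The gene overlaps Clec9a on the same strand, and 1.66% of its 100-base stretches are shared with it. Markers of platelets, the cell best known for Clec1b, summed to 2.272 to 2.543 FPKM in WT and 3.602 to 4.116 FPKM in PGRN KO libraries, with Pf4 and Itgb3 called higher among the 4 tested of 7 listed.

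Because a ratio of genes within a library does not depend on how the libraries were scaled, the receptors were also set against each other. The fits used differences in log2(FPKM + 1), which come near the log2 ratio only for genes well above 1 FPKM. The difference in response to genotype was tested for all 45 pairs, and a pair was called where the larger of its 2 adjusted p-values, each over all genes tested, was under 0.05. By that rule 32 of the 45 pairs were called, against 61.5% of all genes when each was compared with a member in the same fit, a share that ran from 9.34% against Clec4a2 to 97.2% against Clec4a3. That share rests on a single adjusted p per gene, a looser rule than that for the pairs. Against Clec12a it was 64.3% and against Clec5a 46.0%. Against Clec7a, Clec4n, Clec4a1 and Clec4a3 it was 88.0% to 97.2%, so that a call against one of these is near the share for any gene. The difference in log2(FPKM + 1) between the members of a pair did not overlap between genotypes for 40 of the 45 pairs, against 38.3% of all pairs of tested genes. Of the 36 pairs without Clec1b, 26 were called. They were all 18 pairs of a member called lower with Clec5a, Clec12a or Clec4a2, and 8 of the 15 pairs of members called lower. Where a member called lower meets one called higher, the shift follows from the calls of the single genes. The p-values of such pairs restate those calls and are not separate evidence. Of the called pairs, that of Clec4e and Clec4a2 was nearest the threshold (limma adjusted p = 0.0496), and its call was lost in 8 of 11 alternative settings. The pairs with Clec1b compare a member with a gene near 0 and add little to that member's own difference.

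**Figure D3:**
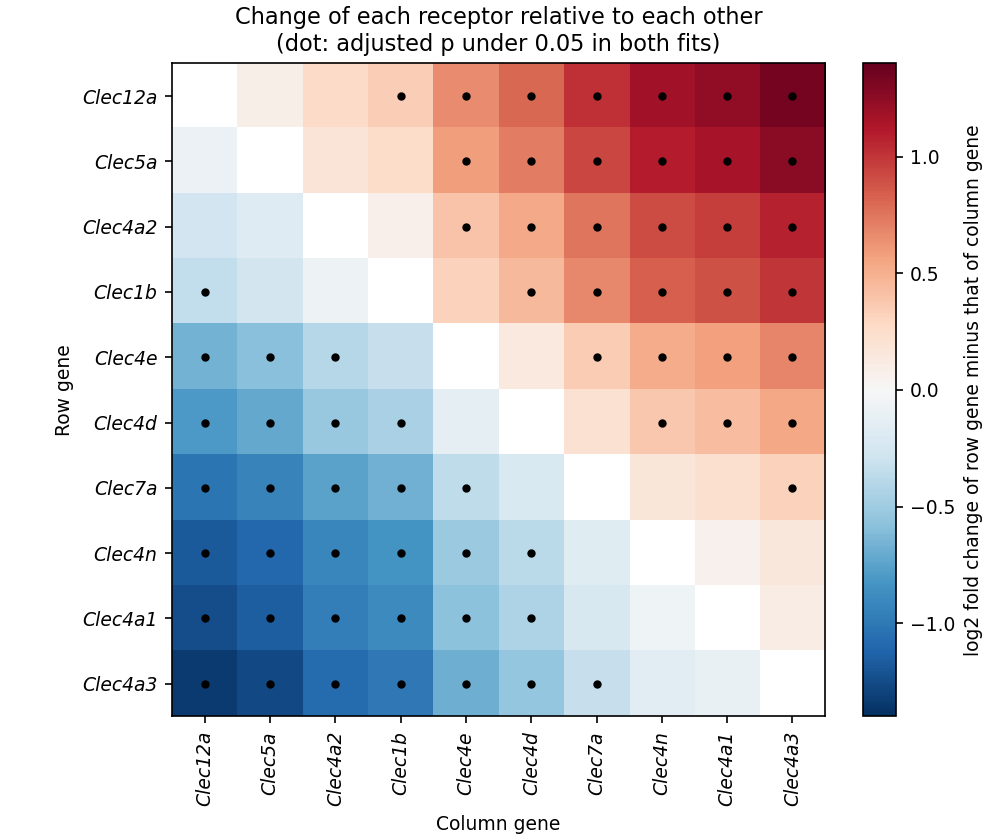
Difference between the log2 differences of every 2 receptors (row minus column), PGRN KO minus WT on the log2(FPKM + 1) scale, with a dot on each called pair. The called pairs number 32 of 45, and the strongest colours join Clec4a3, Clec4a1 and Clec4n to Clec12a and Clec5a.

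The balance between the DCIR relatives and the inhibitory receptor Clec12a was shifted in every PGRN KO library, as the calls of the single genes imply. Clec4a1 over Clec12a was 2.36, 2.22 and 2.31 in WT and 1.01, 0.964 and 0.873 in PGRN KO libraries, a log2 difference between the genes of -1.24 (SE 0.0839, limma adjusted p = 5.67e-05). Clec12a over Clec4a3 averaged 1.05 ± 0.138 in WT and 2.82 ± 0.0979 in PGRN KO libraries (SD, n = 3; log2 difference 1.34, limma adjusted p = 0.000115). For Clec4a1 and Clec4a2, of the same family, the ratio of FPKM was 1.58 ± 0.044 in WT and 0.796 ± 0.0772 in PGRN KO libraries (log2 difference -0.97, limma adjusted p = 0.000145). The fold shift of this ratio does not depend on gene length, whereas which of the genes stands higher in WT does. In none of these 3 ratios did the genotypes overlap.

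The fungal receptors shifted in the same way against the members called higher, again as the calls of the single genes imply. Clec7a over Clec12a, the ratio of the β-glucan receptor to an inhibitory receptor, averaged 2.44 ± 0.0721 in WT and 1.18 ± 0.0707 in PGRN KO libraries (log2 difference -1.02, limma adjusted p = 0.000114). Clec4n over Clec5a, both activating receptors, averaged 4.09 ± 0.264 in WT and 1.90 ± 0.104 in PGRN KO libraries (log2 difference -1.10, limma adjusted p = 0.000107). Within the Dectin-2 cluster, Clec4e over Clec4n averaged 1.62 ± 0.0469 in WT and 2.33 ± 0.185 in PGRN KO libraries (log2 difference 0.52, limma adjusted p = 0.0041). Mincle was lower in PGRN KO cells, a call lost in 8 alternative settings, and yet higher relative to Dectin-2. By the looser rule of a single adjusted p, 94.4% of all genes were called against Clec4n, in either direction. A call against Clec4n is therefore near the share for any gene and is not particular to Mincle. Clec4d over Clec4n averaged 4.56 ± 0.193 in WT and 5.96 ± 0.314 in PGRN KO libraries (log2 difference 0.38, limma adjusted p = 0.00936), a call that did not hold without WT library 1 (adjusted p = 0.0722).

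Other pairs were not told apart. The responses of Clec4n and Clec7a differed by -0.17 (95% interval -0.43 to 0.10, limma adjusted p = 0.208), although the ratio was lower in every PGRN KO library. Those of Clec4n and Clec4a1 differed by 0.06 (95% interval -0.22 to 0.33, adjusted p = 0.683), and those of Clec5a and Clec12a by -0.08 (95% interval -0.25 to 0.09, adjusted p = 0.331). The partners Clec4d and Clec4e differed by -0.14 (95% interval -0.32 to 0.05, adjusted p = 0.188). These intervals still allow differences of moderate size.

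**Figure D4:**
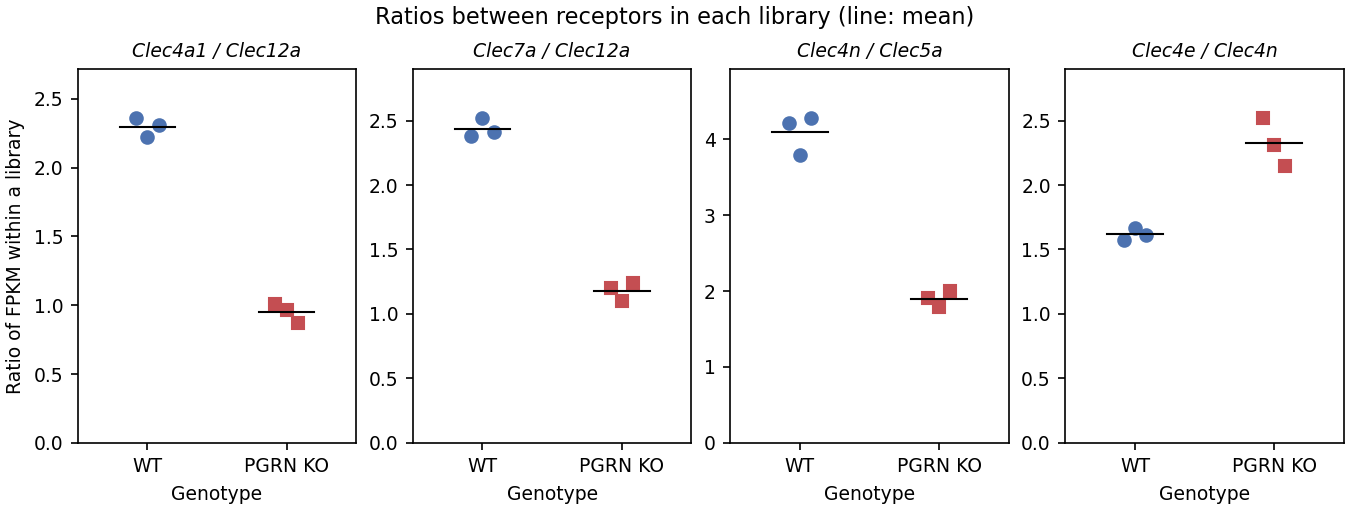
Ratios of FPKM between named pairs of receptors in each of the 6 libraries (linear axes from 0, a panel per pair), 1 point per library with lines at the means. The ratio of Clec4a1 to Clec12a lies between 2.22 and 2.36 in WT and between 0.873 and 1.01 in PGRN KO libraries.

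Summed over the 10 receptors, the level was 1966, 1960 and 2140 FPKM in WT and 1470, 1477 and 1685 FPKM in PGRN KO libraries, 0.764 times the WT mean. The genotypes did not overlap in this sum, most of which was Clec4d. Clec4d made up 56.2 ± 0.51% of it in WT and 55.6 ± 0.666% in PGRN KO libraries (SD, n = 3), with overlapping values. The share of Clec4n went from 12.3 ± 0.41% in WT to 9.33 ± 0.47% in PGRN KO, and that of Clec5a from 3.02 ± 0.119% to 4.92 ± 0.132%. Clec12a went from 1.05 ± 0.0112% to 1.82 ± 0.0837%. In all, 5 members (Clec4e, Clec5a, Clec4a2, Clec12a and Clec1b) had a higher share in every PGRN KO library and 4 (Clec4n, Clec7a, Clec4a1 and Clec4a3) a lower one. Among all genes tested, set over the same sum, 50.1% were higher and 3.74% lower in every PGRN KO library. With fragments not divided by gene length, 3 members in place of 5 had the higher share and 5 in place of 4 the lower one, and the difference in the share of Clec4d was -2.5 in place of -0.645 percentage points.

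The genes beside the receptors were examined next. Within 200 kb of a member, 33 other genes were tested, of which 7 were called lower and 1 higher in PGRN KO cells, with a median log2 difference of -0.11. The shares over all genes tested were 9.95% lower and 7.94% higher. C3ar1, the receptor for the complement fragment C3a, went from 22.5 ± 1.2 to 11.7 ± 1.23 FPKM (SD, n = 3; log2 difference -0.90, limma adjusted p = 0.00112). Gabarapl1, an autophagy gene, went from 30.9 ± 0.77 to 21.3 ± 1.69 FPKM (log2 difference -0.52, limma adjusted p = 0.00352). The other 5 called lower were the lectin genes Clec4a4, Clec4b2, Clec4b1, Olr1 and Clec2d. Of these, Clec4b1 rests on 15 fragments over the WT and 4 over the PGRN KO libraries, and Clec4a4 on 50 and 20. Around the block of 6 Clec4 members, 4 of 14 neighbours were called lower, and around Clec12a, Clec1b and Clec7a, 3 of 13 were. Around Clec5a, E330009J07Rik was called higher (log2 difference 0.36, limma adjusted p = 0.0238), 1 of 6 tested, and each of these counts rests on few genes. The count called lower was 3 without WT library 2 and 4 without PGRN KO library 5. The count called higher was 0 without WT library 1 or 2 or PGRN KO library 4 or 5, and 4 with plain totals of fragments.

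**Figure D5:**
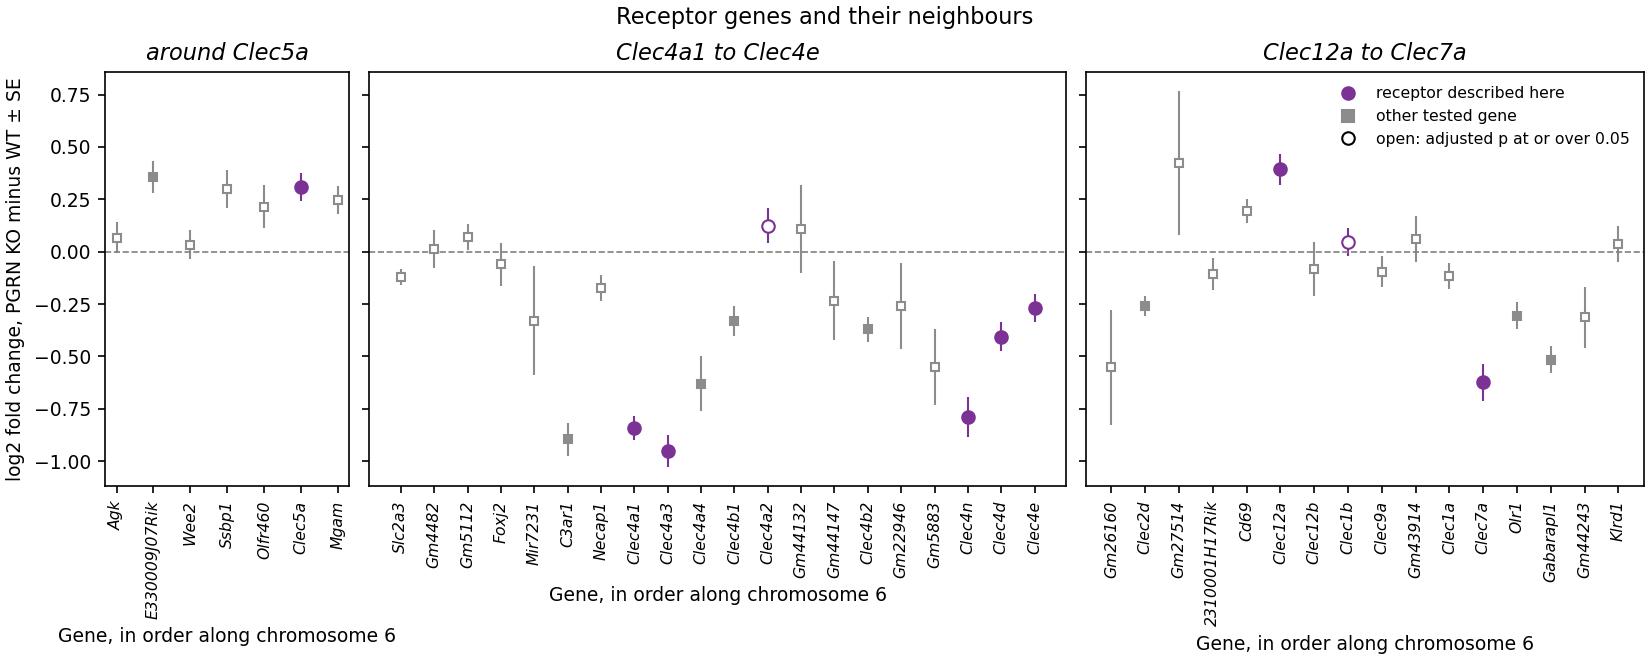
Log2 difference (PGRN KO minus WT) of the receptors and of the 33 tested genes within 200 kb of them, in order along chromosome 6, with lines for ± 1 SE, circles for receptors, squares for neighbours and filled symbols for called genes. Among the neighbours 7 lie below 0 with a call and 1 above, and 6 and 2 of the 10 receptors do.

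Other C-type lectin genes were counted in the same fit, without a test against the members. Of 29 others listed on chromosome 6, 14 passed the filter on low values. Of these, 5 were called lower and 0 higher, at a median log2 difference of -0.11, against 9.95% and 7.94% of all genes tested. Clec4a4, an inhibitory DCIR relative, was at 1.27 ± 0.337 FPKM in WT and 0.46 ± 0.158 FPKM in PGRN KO libraries (SD, n = 3; log2 difference -0.63, limma adjusted p = 0.0201), and Olr1, the receptor for oxidized low-density lipoprotein, at 45.7 ± 3.39 and 36.7 ± 1.94 FPKM (log2 difference -0.31, limma adjusted p = 0.0237). Clec2d, the ligand of an inhibitory receptor of natural killer cells, was at 83.6 ± 2.17 and 69.6 ± 3.03 FPKM (log2 difference -0.26, limma adjusted p = 0.0121). All 5 lay within 200 kb of a member, and Clec4a4 and Clec4b1 rest on the few fragments given above. The count called lower was 1 without WT library 2, 2 without PGRN KO library 5, and 3 without WT library 3, without PGRN KO library 6 or with plain totals of fragments. Of 33 lectin genes in the list for other chromosomes, 3 proved to lie on chromosome 6 and were not tested, and 10 were tested, at a median of 0.01. Thbd, encoding thrombomodulin, rose from 1.5 ± 0.0512 to 3.77 ± 0.172 FPKM (log2 difference 0.93, limma adjusted p = 0.000377), and Mgl2 and Layn, both under 1 FPKM, were also called higher. Cd93 fell from 24.1 ± 0.414 to 14.8 ± 0.545 FPKM (log2 difference -0.67, limma adjusted p = 0.000405). The 3 called higher became 1 without WT library 1 or 3 or PGRN KO library 5 or 6.

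Downstream of the receptors, the adaptors were not called. Fcer1g, encoding FcRγ, averaged about 1800 ± 28.5 FPKM in WT and 1700 ± 55.4 FPKM in PGRN KO libraries (SD, n = 3; log2 difference -0.08, limma adjusted p = 0.253). Its values were lower in every PGRN KO library than in any WT library, as were those of 19.6% of all genes tested. Tyrobp, encoding DAP12, averaged about 1330 ± 95.4 and 1210 ± 62.7 FPKM, with overlapping values (log2 difference -0.13, limma adjusted p = 0.245). Hcst, encoding DAP10, had a log2 difference of 0.06 (limma adjusted p = 0.641). Both main adaptors averaged above each of the 10 receptors in WT cells on the FPKM scale. Of the phosphatases recruited by inhibitory receptors, Inpp5d, encoding SHIP-1, fell from 25.5 ± 0.375 to 20.3 ± 0.593 FPKM (log2 difference -0.32, limma adjusted p = 0.00469), while Ptpn6 and Ptpn11 had log2 differences of -0.10 and -0.05 (limma adjusted p = 0.15 and 0.463). Of 13 kinases and CARD9 chain members, 4 were called lower and 0 higher, at a median of -0.08, against 9.95% and 7.94% of all genes tested. The paracaspase gene Malt1 had the largest difference (-0.73, limma adjusted p = 0.00118), followed by the exchange factor Vav1 (-0.43, adjusted p = 0.00361), Syk (-0.29, adjusted p = 0.00968) and the Src-family kinase Lyn (-0.24, adjusted p = 0.0154).

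The Ly-6G-selected cells could hold other cell types that express these receptors, and their markers were counted. Of 10 monocyte and macrophage markers, 8 were tested, and Ccr2 and F13a1 were called lower while Ly6c2 was called higher. Mertk was at 0 in all libraries, and the summed list was at 553.3 to 557.8 FPKM in WT and 570.6 to 724.1 FPKM in PGRN KO libraries. Most of that sum was Ly6c2, at a mean of 401 FPKM in WT and 521 FPKM in PGRN KO libraries. Ccr2, F13a1, Fcgr1 and Csf1r lay lower in every PGRN KO library than in any WT library, as did 19.6% of all genes tested. Adgre1, Cx3cr1 and Ms4a7 overlapped between genotypes. Of 9 dendritic cell markers, 4 were tested, and H2-Ab1 and Cd74 were called lower, the summed list running from 111.7 to 121.3 FPKM in WT and from 73.45 to 83.36 FPKM in PGRN KO. B cell markers summed to 1.505 to 2.551 FPKM in WT and 2.975 to 3.722 FPKM in PGRN KO libraries, with Cd79a called higher, and basophil markers to 1.713 to 2.133 and 9.346 to 11.23 FPKM, with Mcpt8 and Prss34 called higher. The part of these cells in the receptor results was not tested.

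The genes whose levels followed 3 of the receptors most closely over the 6 libraries were named by Pearson r among 9249 genes, as a description. For Clec7a they were Tagap (r = 0.998), Dclre1c and Slfn8 (both 0.997). For Clec4n they were the lysosomal genes Scarb2 (r = 0.999) and Lipa (0.998) and the interferon-inducible gene Ifi209 (0.998), and for Clec4e they were Fundc2, Prdm4 and Cdc27 (0.994, 0.994 and 0.992). The 6 libraries form groups of 3 by genotype, so that a high r reflects the shared difference between genotypes as well as the order of libraries within them.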

How the data were processed

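The 6 neutrophil libraries, 3 WT and 3 PGRN KO, were assigned to genotypes from their labels. No library was left out. From poly(A)-selected, paired-end libraries the authors discarded reads with adapters or low quality, mapped the rest and deposited FPKM values per gene. Their methods name HISAT 2.0.4 and HTSeq 0.6.1, and the submitters' processing notes name HISAT2 2.0.5, featureCounts 1.5.0-p3 and DESeq2 1.20.0, with builds mm10 and GRCm38. The sources used here do not say whether counting used strand. The files' gene IDs and positions were matched to GENCODE M21 (54409 of 54532 IDs).

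FPKM times gene length gave whole fragments for 100% of values within a tolerance of 0.05 fragments, so that fragments per library were recovered. Divided by the library sizes that the authors' FPKM imply, they gave 1.03 to 1.04 for WT and 0.946 to 0.957 for PGRN KO libraries, so that PGRN KO levels sit lower here than after scaling to plain totals. Replicate libraries differed beyond sampling noise (chi-square per degree of freedom 2.83 to 11.7).

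Genes with a mean of at least 0.1 FPKM (14807) were fitted as log2(FPKM + 1) with limma 3.58.1 in R 4.3.3 (eBayes with trend, two-sided, Benjamini-Hochberg over all genes tested, threshold 0.05), without covariates. A fold change on this scale understates that of low genes. In a simulation of the comparison of WT with PGRN KO on 14807 genes, 136 of 200 changed genes (68%) were called, with 9 false calls. The simulated differences were 0.5 or 1 in log2, in either direction. Smaller ones, such as those of Clec4d, Clec4e, Clec5a and Clec12a, were not simulated. Pairs of receptors were tested by subtracting each member from every gene and refitting. Named genes were the members, Grn, every adaptor and phosphatase and, for each other list, at most 6 called genes, those of largest absolute difference. The members, lists and markers were chosen with earlier results of these data known, and 1 gene first listed as a marker is not reported here. Alternatives were pseudocounts of 0.1 and 0.5, a filter at 1 FPKM and none, other scalings, other eBayes settings, voom on the recovered fragments and the omission of each library. Promoter windows came from RefSeq on GRCm38.p6.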

Additional observations from a re-analysis of the deposited data

How the results depend on the processing

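The calls of Clec7a, Clec4n, Clec4a1 and Clec4a3 held in all 16 alternative settings, and no result changed direction after a call. Clec4e was past the threshold in 8 of 16. Its log2 difference was -0.27 with no filter (limma adjusted p = 0.0739) and without the trend (0.0587), -0.15 with plain totals of fragments (0.143), and -0.32 to -0.21 with 1 library left out. Clec4d gave -0.22 under quantile normalization (limma adjusted p = 0.115) and -0.47 to -0.36 with 1 library left out. With 1 library left out, Clec12a ranged from 0.33 to 0.46 and Clec5a from 0.24 to 0.36. The members called higher numbered 0 to 2 in place of 2, and those called lower 4 to 6.

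Across all genes, 1322 to 2161 were called with 1 library left out, against 2648 in all, of which 540 to 913 were higher (1175 with every library) and 775 to 1248 lower (1473). Plain totals of fragments gave 2149 higher and 934 lower, and moved the median of all genes by 0.0641. Receptors well above 1 FPKM moved further, for example Clec4n from -0.79 to -0.67 and Clec5a from 0.31 to 0.43. Voom on the recovered fragments called 3626 genes and left the 6 lower and 2 higher members. The pairs called numbered 28 to 32 over all settings run. With fragments not divided by length, 3 members had a higher share in every PGRN KO library. Of the other chromosome 6 lectins, 1 to 5 were called lower with 1 library left out, and plain totals gave 3 lower and 1 higher. Lectins of other chromosomes called higher numbered 1 to 3. Neighbours numbered 3 to 7 lower and 0 to 1 higher with 1 library left out, and 4 higher with plain totals. The causes of these changes were not tested.

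No paired analysis was possible because the genotypes share no replicate numbers. Depth limits Clec1b, whose 32 and 46 fragments per genotype show no difference.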
